A study of Mus musculus with 16 samples.

Results

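The genes followed here encode the subunits of respiratory complex I (NADH:ubiquinone oxidoreductase) and the *Nduf*-named factors that assemble it. Of 55471 gene identifiers in the count table, 49 carried a symbol of the families *Ndufa*, *Ndufb*, *Ndufc*, *Ndufs*, *Ndufv*, *Ndufab* or *Ndufaf* followed by a digit, once symbols ending in -ps were set aside. Of these, 48 had 10 or more counts in at least 6 of the 16 libraries, and the same 48 were tested among 14331 genes. The remaining gene, *Ndufa11b*, had 93 counts in all, reached 10 counts in 3 libraries and was not tested. The 48 genes lie on 17 chromosomes, and 47 of them had 10 or more counts in every library.

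The libraries are bulk mRNA-seq of skeletal muscle from 16 male mice, 10 labelled heterozygous for *Npr1* (*Npr1*+/-) and 6 labelled wildtype littermates (*Npr1*+/+). *Npr1* encodes guanylyl cyclase A, the receptor of atrial natriuretic peptide, and the question put to the muscle was whether its mitochondrial genes differ when 1 copy is lost. All 16 mice came from stock backcrossed to C57BL/6J for at least 10 generations, and all were fed a high-fat diet (60% of kcal from lipids) for 12 weeks from the age of 12 weeks, so no standard-diet muscle was compared here. The allele is lost in every tissue rather than in muscle alone, the labels do not name the muscle, and they spread the mice over 4 cages, numbered 675 to 678, with body weights from 36.5 to 54 g.

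Complex I is an L-shaped enzyme of the inner mitochondrial membrane that oxidizes NADH, reduces ubiquinone and pumps protons. Its core subunits carry out catalysis: those of the N module take electrons from NADH, those of the Q module pass them to ubiquinone, and the membrane core, which pumps protons, is encoded by mitochondrial DNA. Supernumerary subunits surround this core in the matrix arm and in the proximal and distal parts of the membrane arm, and assembly factors help to build the enzyme without remaining in it. Skeletal muscle is rich in the complex, and oxidative fibers more so than glycolytic ones.

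Library totals ranged from 15273472 to 59682677 counts, and each library came from 1 mouse. Levels are given as counts-per-million (CPM) values, scaled by the trimmed mean of M values (TMM). All 8 skeletal muscle markers of a fixed list were present, with a summed level of 112432 to 176588 CPM in the libraries labelled *Npr1*+/- and 111711 to 166714 CPM in wildtype. Of 4 cardiac muscle markers, 1 passed the same minimum and *Myl7* was at 0. The 37 genes of the mitochondrial chromosome held 0 counts in the deposited table, so the 7 mitochondrially encoded core subunits, *mt-Nd1* to *mt-Nd6* with *mt-Nd4l*, were not measured. *Npr1* itself was at 9.83, 12.0 and 22.2 CPM (lowest, median and highest) in libraries labelled *Npr1*+/- and at 10.4, 12.4 and 13.4 CPM in wildtype. The groups overlapped at *Npr1*, the log2 fold change was 0.09 (SE 0.199, edgeR quasi-likelihood p = 0.657), and the mRNA did not separate the labels, so the mice are named below by their label and replicate number. In whole muscle, fewer cells of a type and less RNA per cell cannot be told apart.

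Levels between genes were compared as CPM per kb of the principal mRNA. The 3 highest levels per kb were those of *Ndufa4*, *Ndufb8* and *Ndufb9*. *Ndufa4*, first described in complex I and now counted as a subunit of complex IV, was at 1428 ± 450 CPM per kb (SD, n = 16). *Ndufb8*, a supernumerary subunit of the distal membrane arm whose protein is a common readout of the complex, was at 1077 ± 402 CPM per kb. *Ndufb9*, of the same arm, was at 897 ± 223 CPM per kb. Of these 3, each gene's range over the mice overlapped that of the next.

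Levels of 6 nuclear core subunits lay between 244 and 661 CPM per kb. *Ndufs7*, an iron-sulfur subunit at the quinone-binding site, was at 661 ± 146 CPM per kb, and *Ndufa6*, an accessory subunit of the LYR family, was at 662 ± 169 CPM per kb. *Ndufv2*, an iron-sulfur subunit of the N module, was at 460 ± 144 CPM per kb, *Ndufs1*, the largest core subunit of that module, at 340 ± 73.5 CPM per kb, and *Ndufv1*, which binds NADH and FMN, at 321 ± 34.3 CPM per kb. *Ndufs3* and *Ndufs8*, core subunits of the Q module, were at 276 ± 45.3 and 244 ± 52.0 CPM per kb. The median was 340 CPM per kb over the 3 N-module core subunits.

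Assembly factors had a lower median level than each core and supernumerary group. Their 8 levels ran from 11.7 to 57.7 CPM per kb with a median of 26.0, whereas the medians of the 4 supernumerary groups were 269, 287, 347 and 447 CPM per kb in the Q module, the N module, the proximal arm and the distal arm. The 5 lowest of all 48 levels were those of *Ndufb4c* (3.41 ± 1.44 CPM per kb), *Ndufs6b* (4.18 ± 1.76), *Ndufaf7* (11.7 ± 1.46), *Ndufa4l2* (12.9 ± 1.87) and *Ndufaf3* (13.05 ± 2.44). *Ndufaf7* is a methyltransferase that acts during assembly, and *Ndufaf3* acts with *Ndufaf4* early in building the Q module. A distal-arm subunit that lay among the assembly factors was *Ndufb4*, at 47.9 ± 18.3 CPM per kb. The level of *Ndufab1*, the mitochondrial acyl carrier protein found in both arms, was 63.8 ± 9.10 CPM per kb.

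**Figure D1:**
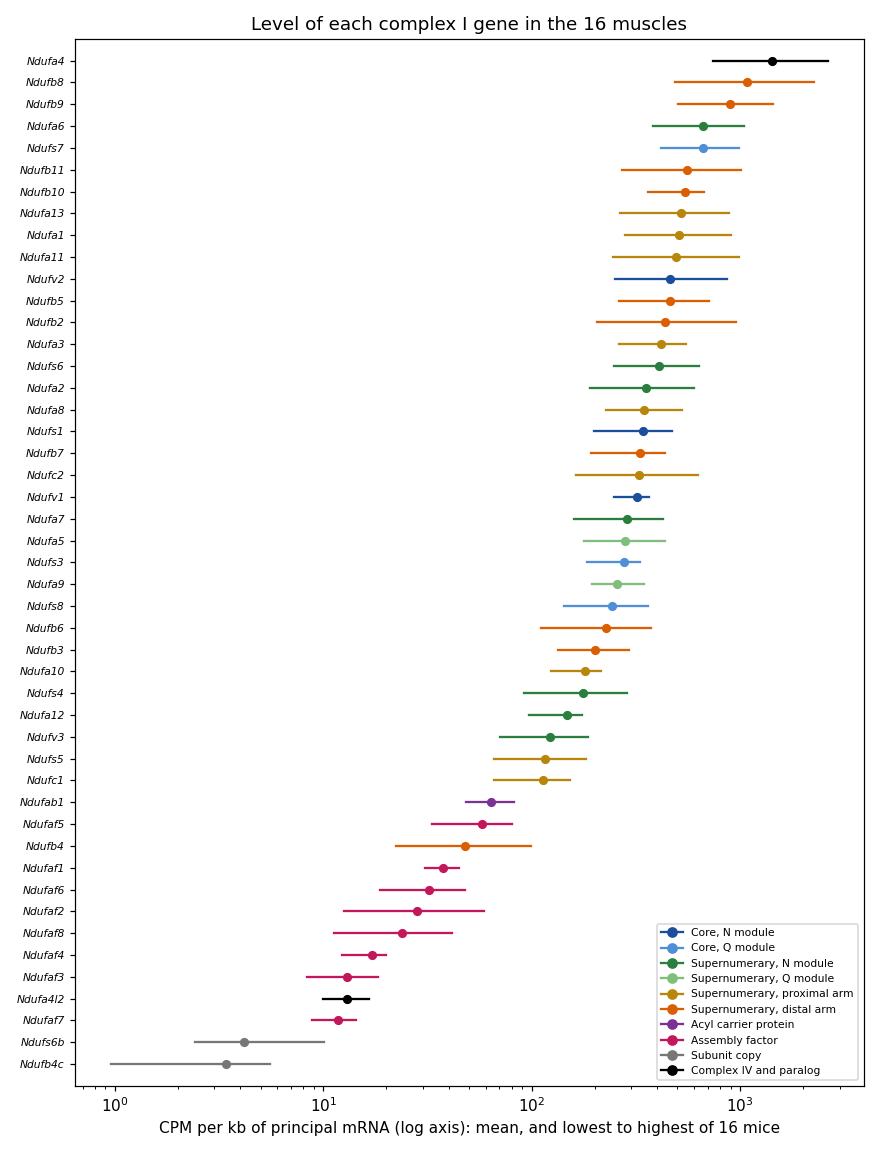
Level of 47 of the 48 genes in CPM per kb of principal mRNA on a log axis, with a dot at the mean of the 16 mice and a line from the lowest to the highest mouse, coloured by role. Subunits fill the upper part, from 1428 CPM per kb in *Ndufa4* downward, and the 8 assembly factors lie between 11.7 and 57.7 CPM per kb.

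Paralogs differed widely in level. *Ndufa4l2*, the paralog of *Ndufa4* known as a hypoxia-induced gene, was at 12.9 CPM per kb against 1428 for *Ndufa4*. *Ndufs6*, a zinc-binding subunit of the N module, was at 407 ± 95.3 CPM per kb against 4.18 for its copy *Ndufs6b*. *Ndufb4c* had the sequence of every 52-base stretch of its transcript, the length of 1 read, in common with transcripts of other genes, so its counts cannot be assigned to it with certainty. Such sharing also covered 38.4% of the stretches in *Ndufs3*, 36.8% in *Ndufb4*, 32.2% in *Ndufb2*, 23.6% in *Ndufs6b*, 13.5% in *Ndufs6* and 13.2% in *Ndufb8*, and it reached 10% or more in 16 of the 48 genes and was 0 in 25. The pseudogene-named *Ndufb1-ps*, left out by the choice of symbols, held 72369 counts, and no separate *Ndufb1* or *Ndufb4b* was among the 49 symbols. The levels per kb of *Ndufb2* and *Ndufab1* depend on the transcript chosen, since their principal transcripts of 455 and 1416 bases have longer alternatives of 4371 and 3479 bases.

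Most of the 48 genes varied together from mouse to mouse. Each gene's deviation was taken as its log2 CPM minus its mean over the 16 mice, and the median over the 48 genes then described a mouse. That median was lowest in *Npr1*+/- mice 7, 6 and 5, at -0.73, -0.63 and -0.42, and highest in *Npr1*+/- mouse 9, at 0.62. The wildtype mice lay between -0.08 and 0.34. All 48 genes were below their mean in *Npr1*+/- mice 6 and 7, 45 were below it in mouse 5, and 42 were above it in mouse 9. Both ends of the range were therefore mice of the same label, and the 10 *Npr1*+/- mice (-0.06 ± 0.42, SD) spread more widely than the 6 wildtype mice (0.10 ± 0.15).

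Summed over the 48 genes, complex I transcripts took 8766, 13757 and 20154 CPM in *Npr1*+/- libraries (lowest, median and highest) and 12487, 14329 and 17493 CPM in wildtype. The mean sum was 13430 ± 3356 CPM (SD, n = 10) against 14576 ± 1738 CPM (n = 6), and the wildtype range lay inside the *Npr1*+/- range. *Npr1*+/- mouse 7 held the lowest library for 30 of the 48 genes and mouse 6 for 11, whereas mouse 9 held the highest library for 33 genes and the lowest for 6.

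**Figure D2:**
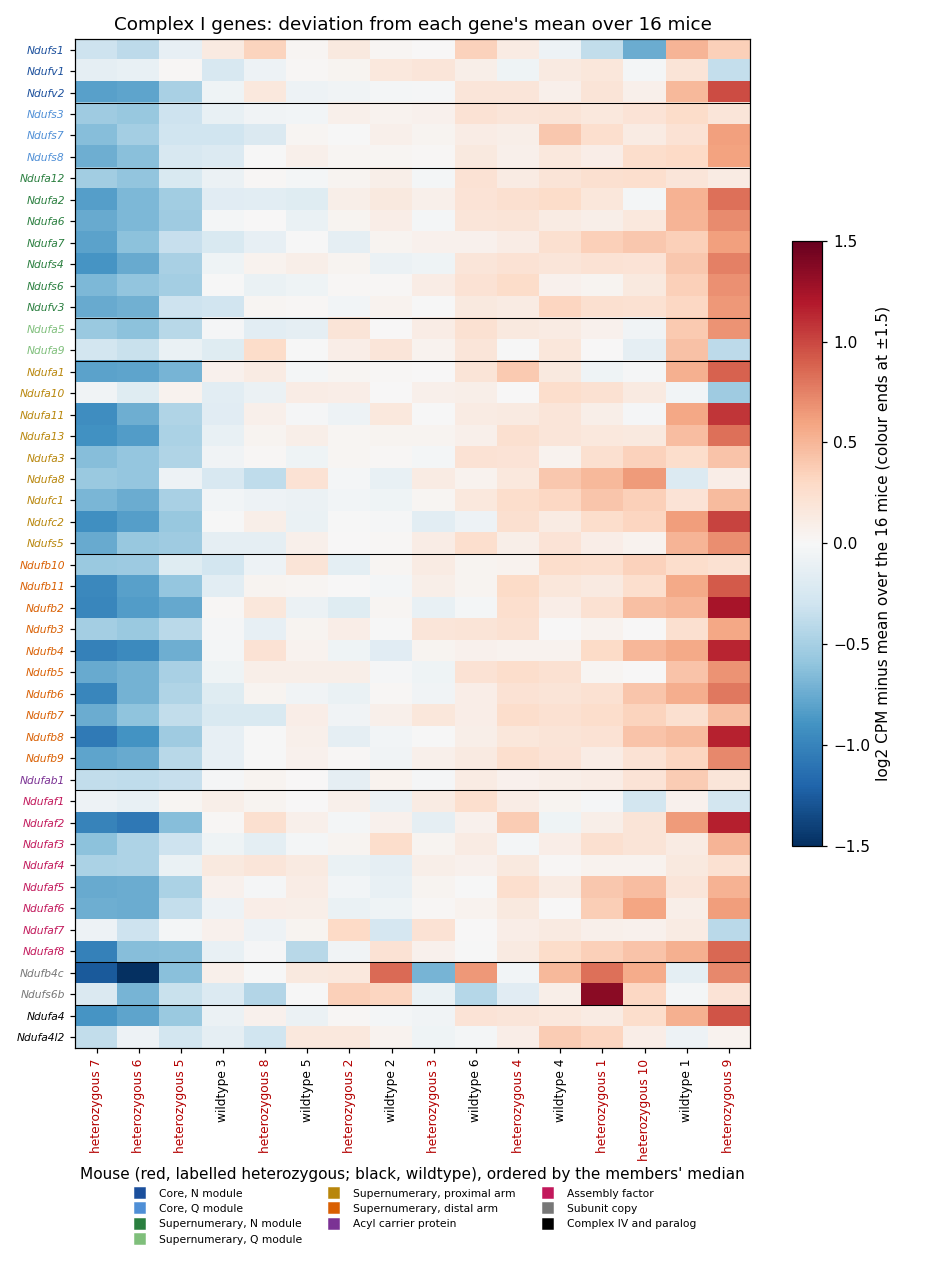
Log2 CPM of 47 of the 48 genes minus each gene's mean over the 16 mice, with genes in rows grouped and coloured by role and mice in columns ordered by the median over the genes (colour scale ends at ±1.5). *Npr1*+/- mice 7, 6 and 5 form the low columns at the left and *Npr1*+/- mouse 9 the high column at the right, where *Ndufv1*, *Ndufa9*, *Ndufa10*, *Ndufaf1* and *Ndufaf7* are lower than in mouse 7.

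Between pairs of genes, the median Pearson correlation over the 16 mice was 0.85 and the median Spearman correlation was 0.70, for 1128 pairs that share libraries, depth and scaling. Of the pairs, 643 had a correlation over 0.8 and 71 had one below 0. No such correlations were taken among other genes, so these values are not shown to be particular to complex I. The median pair had 0.89 within the 10 *Npr1*+/- mice and 0.64 within the 6 wildtype mice, and 0.56 in the 13 mice that remain without *Npr1*+/- mice 5, 6 and 7, a choice made after the values were seen. The 5 genes with the highest median correlation to the others were *Ndufb9* (0.95), *Ndufa13* (0.94), *Ndufs4* (0.94), *Ndufa6* (0.94) and *Ndufb11* (0.94), which belong to the distal arm, the proximal arm and the N module.

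A minority of genes did not follow this order of mice. Of the 48 genes, 38 had a median correlation of 0.7 or more with the rest and 10 were below 0.6. The lowest values were -0.06 for *Ndufaf1*, an early assembly factor of the membrane arm, -0.05 for *Ndufa10*, a proximal-arm subunit of the nucleoside kinase fold, 0.11 for *Ndufaf7* and 0.12 for *Ndufv1*. *Ndufs1* and *Ndufa9*, a subunit beside the quinone site, were at 0.39 and 0.32. The level of 6 genes was lower in *Npr1*+/- mouse 9 than in mouse 7, among them *Ndufa9*, *Ndufv1*, *Ndufaf7*, *Ndufa10* and *Ndufaf1*, and for the other 42 it was higher. Core subunits of the same module were thus split, since *Ndufv2* was at 1469 CPM in mouse 9 and 424 CPM in mouse 7, whereas *Ndufv1* was at 414 and 482 CPM.

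The coefficient of variation (CV) of CPM over the 16 mice ran from 9.47% to 42.1%, with a median of 24.03% over the 48 genes and 26.1% over all genes tested. The CV was highest for the sparse copies *Ndufs6b* (42.1%) and *Ndufb4c* (42.1%) and for *Ndufb2* (40.3%), a small distal-arm subunit. It was lowest for *Ndufaf1* (9.47%), *Ndufv1* (10.7%) and *Ndufa10* (12.0%). *Ndufb2* was at 94.0, 190 and 436 CPM in *Npr1*+/- libraries (lowest, median and highest) and at 174, 188 and 261 CPM in wildtype. *Ndufaf1*, by contrast, was at 44.6, 54.6 and 58.9 CPM and at 51.0, 56.3 and 64.7 CPM. Among core subunits the CV was 31.3% for *Ndufv2*, 22.2% for *Ndufs7*, 21.6% for *Ndufs1*, 21.3% for *Ndufs8* and 16.4% for *Ndufs3*.

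The median CV was higher among complex I genes with shorter mRNAs. Spearman's correlation between principal mRNA length and CV was -0.60 across the 48 genes, which are not independent, since all are measured in the same libraries. The 24 genes at or under 891.5 bases, the median length, had a median CV of 27.2%, and the 24 longer ones had 20.01%. Spearman's correlation was -0.00043 between GC content and CV and 0.15 between level per kb and CV. Other genes had a median CV of 29.2% up to 1383 bases, 22.2% from 1384 to 2223 bases and 34.3% from 4590 bases. Complex I genes had 25.3% and 14.3% in the first 2 of these classes, so a higher CV in the shortest class was not particular to them.

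**Figure D3:**
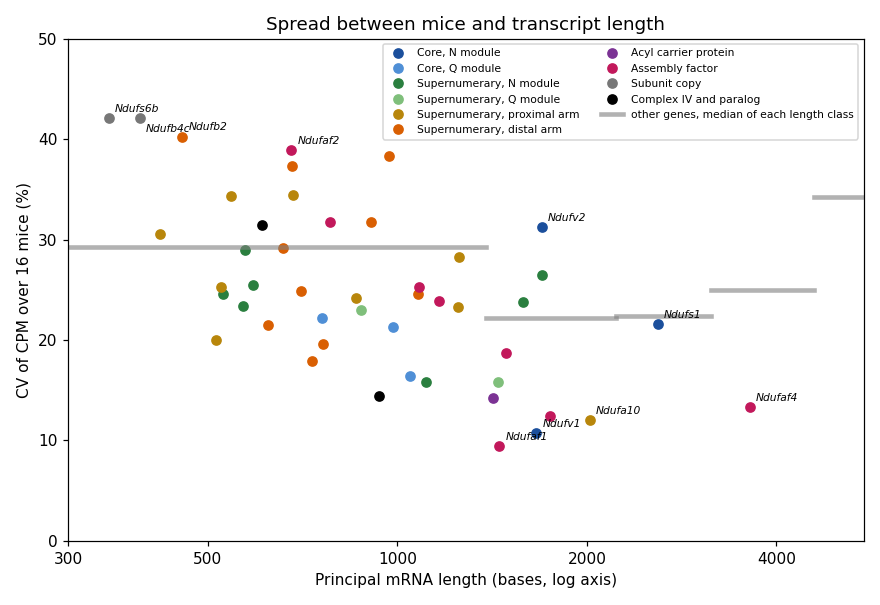
CV of CPM over the 16 mice against the length of the principal mRNA (log axis) for 47 of the 48 genes, coloured by role, with grey lines at the median CV of all other tested genes in each of 5 classes of mRNA length. The copies *Ndufs6b* and *Ndufb4c* and the short *Ndufb2* stand at the top, from 40.3% to 42.1%, while *Ndufaf1*, *Ndufv1* and *Ndufa10*, at 1451 to 2020 bases, lie between 9.47% and 12.0%.

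The libraries differed in their balance of short and long mRNAs outside complex I as well. The other genes were split by mRNA length into 5 classes of nearly equal size, the longest from 4590 bases. The balance was taken as the median deviation of the shortest class (up to 1383 bases) minus that of genes of 4589 bases or more. It was -1.20 in *Npr1*+/- mouse 7, -0.91 in mouse 6 and -0.69 in mouse 5, and 0.77 in mouse 9. In the other 12 libraries it lay between -0.18 and 0.69. The 3 libraries lowest for complex I were therefore the 3 lowest in this balance, and the highest was the highest in both.

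In the shortest length class, the median complex I gene was further from its mean than the median of the other genes in these 4 libraries. Of the 48, 35 fell in the shortest class, 11 in the next (1384 to 2223 bases), 1 in each of the following 2 classes, and 0 in the longest. In *Npr1*+/- mouse 7 the median deviation was -0.76 for the 35 short complex I genes and -0.50 for the 2855 other genes of that class. The corresponding medians were -0.67 and -0.40 in mouse 6, -0.47 and -0.29 in mouse 5, and 0.68 and 0.40 in mouse 9. For the 11 genes of the second class, the median deviation was -0.28 against -0.23 in mouse 7, -0.33 against -0.16 in mouse 6, -0.14 against -0.12 in mouse 5 and -0.28 against 0.07 in mouse 9. The single gene of the third class was at -0.32 against 0.03 in mouse 7, -0.40 against 0.05 in mouse 6, -0.12 against 0.02 in mouse 5 and 0.36 against -0.16 in mouse 9. That of the fourth class was at -0.47 against 0.27, -0.46 against 0.24, -0.10 against 0.17 and 0.23 against -0.34. Both were thus low in mice 7, 6 and 5 where the median of other genes of their length was above 0, and high in mouse 9 where it was below 0. These are descriptions of single libraries that were picked as the extremes of the complex I median, which favours larger complex I deviations in them. The part of the length balance in the complex I values was not tested.

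**Figure D4:**
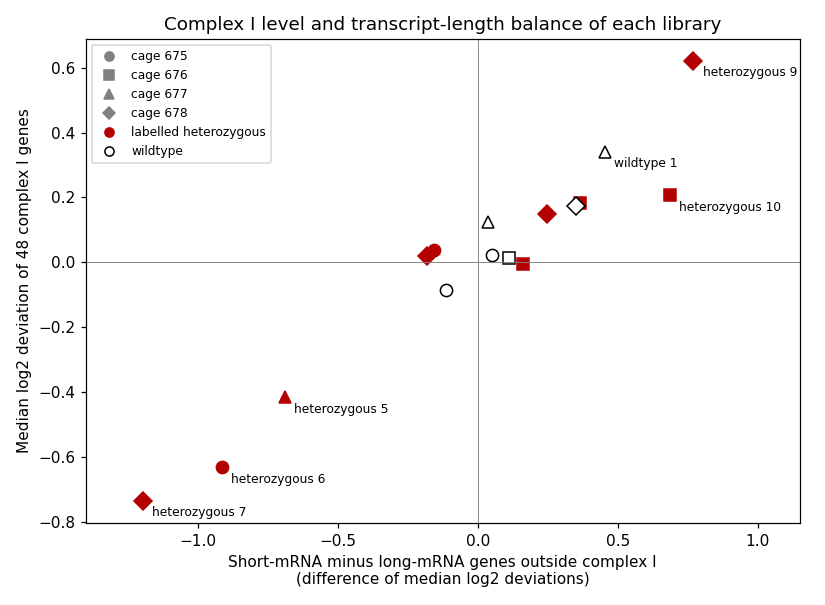
Median log2 deviation of the 48 complex I genes (vertical axis) against the balance of short and long mRNAs outside complex I (horizontal axis), 1 point per mouse, filled red for *Npr1*+/- and open for wildtype, with the shape giving the cage. *Npr1*+/- mice 7, 6 and 5 lie at the lower left, from -0.73 to -0.42, apart from the remaining 13, and *Npr1*+/- mouse 9 lies at the upper right.

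The same 3 libraries were the highest in *Myh2* and *Atp2a2*, from a fixed list of slow and oxidative fiber markers, and the other markers of the list differed among the 3. All 8 markers were present, and their summed level was 1375 CPM in *Npr1*+/- mouse 6, 1058 CPM in mouse 7 and 680 CPM in mouse 5. The other libraries held at most 431 CPM (212 to 1375 CPM over *Npr1*+/- and 221 to 371 CPM over wildtype). The myosin *Myh2* reached 1139, 910 and 519 CPM in mice 6, 7 and 5 and at most 278 CPM elsewhere, and the calcium pump *Atp2a2* reached 70.0, 47.0 and 28.7 CPM and at most 24.3 CPM elsewhere. The slow myosin *Myh7* was at 28.6 CPM in mouse 6, 6.64 CPM in mouse 7 and 2.14 CPM in mouse 5, and at most 2.58 CPM elsewhere. The light chain *Myl3*, the next most abundant marker of the list, was lowest of all 16 libraries in mouse 7, at 74.9 CPM, was at 86.4 CPM in mouse 6 and was highest in mouse 9, at 212 CPM. The slow troponins *Tnnt1*, *Tnni1* and *Tnnc1* and the light chain *Myl2* were highest in wildtype mouse 4, at 14.5, 13.5, 11.7 and 32.5 CPM. Mouse 6 was the next highest in *Tnnt1*, *Tnnc1* and *Myl2*, at 13.1, 8.48 and 20.8 CPM, and was at 8.62 CPM in *Tnni1*, below mouse 9 at 10.1 CPM. In mice 7 and 5 these 4 genes lay within the range of the other libraries, except that *Myl2* was lowest of all 16 in mouse 7, at 3.09 CPM. Adipocyte markers of a fixed list, summed over those tested, also differed between mice. Their level was lowest in mouse 7, at 303 CPM, and was 384 CPM in mouse 5 and 507 CPM in mouse 6. It was 878 CPM in mouse 9, 952 CPM in wildtype mouse 4 and 1215 CPM in *Npr1*+/- mouse 10. The parts of fiber content and of adipocyte RNA in the complex I levels were not tested.

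Promoter sequence was examined because most of the genes moved together. Of the 48, 42 had a promoter window (250 bases before to 50 after the start, RefSeq, GRCm38.p6), and each window was searched on both strands. The palindromic motif of NRF1, a regulator of nuclear genes for respiration, whose letters are the capitals in the first 2 lines shown here, was in 3 of 42 windows (7.1%) and in 1.07% of 27025 genes. The YY1 motif AAGATGGCG was in 6 windows (14.3%, against 1.64%), the ETS-family motif CCGGAAG in 6 (14.3%, against 9.93%) and the estrogen-related receptor half-site AAGGTCA in 3 (7.1%, against 5.38%). The YY1 matches were in *Ndufa9*, *Ndufaf8*, *Ndufc1*, *Ndufs4*, *Ndufs6* and *Ndufs7*. The 27025 genes are all those with a window and were not limited to genes tested in this muscle, as the 42 were. Matches of letters are descriptions and were not tested as sites. The stretches before the start that hold the motif, in capitals, are shown for 2 genes with the NRF1 motif, the first of which covaried with the group at a median r of 0.90 and the second at 0.79, and for 2 of the most variable subunits, which hold the half-site:
Ndufa11, NRF1, chr17:56717677-56717736, plus strand: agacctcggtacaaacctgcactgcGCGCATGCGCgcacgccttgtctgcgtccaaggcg
Ndufaf4, NRF1, chr4:24897945-24898004, plus strand: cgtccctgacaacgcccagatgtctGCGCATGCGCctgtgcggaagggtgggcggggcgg
Ndufb2, half-site, chr6:39592359-39592415, plus strand: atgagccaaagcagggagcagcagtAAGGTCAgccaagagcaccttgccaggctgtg
Ndufb4, half-site, chr16:37654392-37654448, minus strand: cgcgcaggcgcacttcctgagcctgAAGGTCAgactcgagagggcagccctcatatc

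By genotype label, none of the 48 genes passed the threshold. With cage and body weight as covariates, 0 of 48 genes were called at an adjusted p under 0.05 (edgeR quasi-likelihood test, Benjamini-Hochberg), where 0% of all 14331 genes were called, and 0 had an unadjusted p under 0.05, against 1.05% of all genes. DESeq2 and limma-voom also called 0 of the 48, and called 0.0419% (6 genes) and 0% of all genes. At all 48 genes the 2 groups overlapped, and 0.00698% of all genes did not overlap. The log2 fold change was below 0 at 38 of the 48 genes (79.2%), against 51.6% of all genes, with a median of -0.06 over the 48 and of -0.0060 over all genes. The choice of covariates changed this number. It was 45 with the genotype label alone (median -0.097), 48 with cage only (-0.19) and 37 with body weight only (-0.05). The shares of all genes were then 47.8%, 51.3% and 46.7%. These directions are not independent of each other, since the genes move together, and the number below 0 was 24 without *Npr1*+/- mouse 5, 20 without mouse 6, 43 without mouse 7 and 10 without mice 5, 6 and 7, a setting chosen after the values were seen.

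No core subunit passed the threshold. *Ndufs7*, *Ndufv1*, *Ndufs3*, *Ndufs1* and *Ndufs8* had log2 fold changes of -0.17, -0.15, -0.12, -0.08 and -0.06, with standard errors of 0.208, 0.138, 0.176, 0.199 and 0.204. These sizes depended on the covariates. With the genotype label alone, cage only and body weight only, *Ndufs1* was at -0.24, -0.21 and -0.23, and *Ndufv1* at -0.10, -0.07 and -0.13. *Ndufv2* was at 424, 762 and 1469 CPM in *Npr1*+/- libraries (lowest, median and highest) and in wildtype at 707, 759 and 1050 CPM, with a log2 fold change of 0.04 (SE 0.263). Of the 6 core subunits given, 5 were below 0, where 51.6% of all genes were. The intervals of all 6 included 0, from -0.45 to 0.16 for *Ndufv1* and from -0.64 to 0.29 for *Ndufs7* (95%).

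*Ndufb8* was at 330, 686 and 1530 CPM in *Npr1*+/- libraries and at 631, 730 and 958 CPM in wildtype. Its log2 fold change was 0.0041 (SE 0.304, p = 0.989, edgeR), with a 95% interval from -0.67 to 0.68. The interval leaves room for a difference of that size in either direction. Its sign was negative under several alternatives given in the closing section.

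Among the supernumerary subunits, all 7 of the N module and both of the Q module were below 0, as were 8 of 9 of the proximal arm and 6 of 10 of the distal arm. The group medians were -0.06, -0.12, -0.07 and -0.02. Of all genes, 51.6% were below 0, with a median of -0.0060. *Ndufa9* was at 280, 355 and 446 CPM in *Npr1*+/- libraries and at 323, 416 and 498 CPM in wildtype, with a log2 fold change of -0.19 (SE 0.160, p = 0.249, edgeR). *Ndufa10* was at 251, 369 and 425 CPM against 326, 375 and 435 CPM, with a log2 fold change of -0.18 (SE 0.142). The genes above 0 with the smallest p-values were *Ndufb2* (0.10, SE 0.305), *Ndufc2* (0.08, SE 0.267) and *Ndufb4* (0.08, SE 0.315), with mRNAs of 971 bases or less and with p-values of 0.735 or more (edgeR). All of these ranges overlapped.

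The 8 assembly factors had a median log2 fold change of -0.02, with 5 below 0 and 3 above, where 51.6% of all genes were below 0. *Ndufaf2*, which takes the place of a late N-module subunit during assembly, was at 8.48, 18.2 and 40.0 CPM in *Npr1*+/- libraries and at 17.1, 18.6 and 27.6 CPM in wildtype, with a log2 fold change of 0.08 (SE 0.301). *Ndufaf6* had 0.06 (SE 0.220), at 20.1, 35.2 and 52.0 CPM against 32.1, 34.5 and 36.0 CPM. Of 15 further assembly factors in a fixed list with other names, 14 were tested, 12 were below 0 and 0 were called or had an unadjusted p under 0.05, with a median of -0.06. Of all genes, 51.6% were below 0, 0% were called and 1.05% had an unadjusted p under 0.05. Among the 14, *Sfxn4* had the smallest p-value (-0.29, SE 0.247, p = 0.255, edgeR), followed by *Acad9* (-0.19, SE 0.176).

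*Ndufab1* had a log2 fold change of -0.11 (SE 0.149), and *Ndufa4* had 0.0034 (SE 0.262). *Ndufa4l2* was at 9.28, 11.9 and 14.9 CPM in *Npr1*+/- libraries and at 10.9, 12.1 and 15.5 CPM in wildtype, with a log2 fold change of -0.18 (SE 0.158). *Ndufb4c* had the lowest value of the 48, -0.50 (SE 0.389, p = 0.218, edgeR), at 0.375, 1.18 and 2.12 CPM against 1.08, 1.5 and 2.16 CPM, with the uncertainty of its shared sequence. *Ndufs6b* had -0.02 (SE 0.336).

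**Figure D5:**
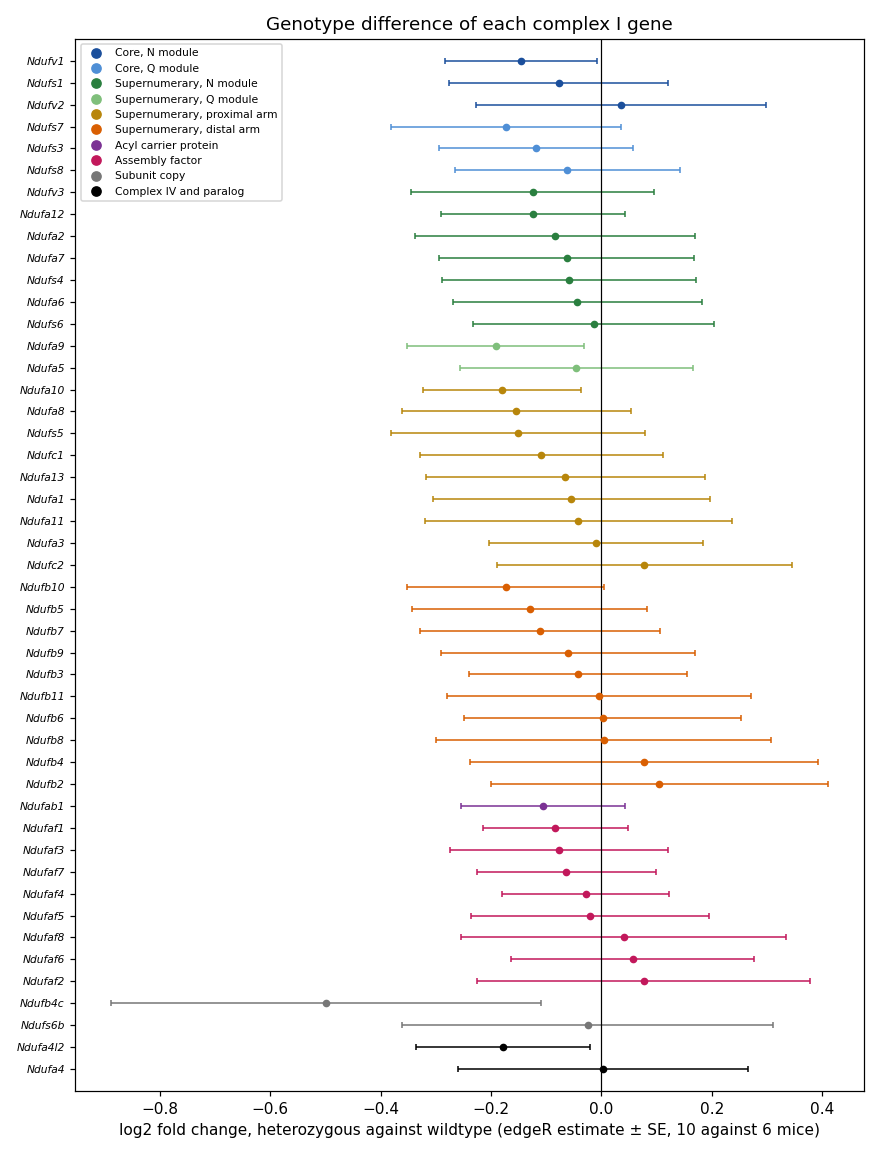
Log2 fold change of libraries labelled *Npr1*+/- against wildtype with its standard error for 47 of the 48 genes (edgeR estimate with cage and body weight as covariates, 10 against 6 mice), grouped and coloured by role. Points run from -0.50 in *Ndufb4c* to 0.10 in *Ndufb2*, most of them left of 0, and no gene passed the threshold.

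Within single cages the direction was not the same. The median over the 48 genes of the *Npr1*+/- minus wildtype difference in log2 CPM was -0.28 in cage 675 (2 against 2 mice), 0.09 in cage 676 (3 against 1), -0.63 in cage 677 (1 against 2) and -0.15 in cage 678 (4 against 1). The corresponding medians over all genes were -0.0045, -0.03, 0.02 and -0.05. The number of the 48 genes below 0 was 44, 10, 46 and 44, against 50.5%, 54.8%, 48.7% and 55.3% of all genes. *Npr1*+/- mice 6, 5 and 7 were housed in cages 675, 677 and 678, and cage 676 held none of them. The *Npr1*+/- minus wildtype difference in the balance of short and long mRNAs had the same sign as the complex I median in each cage, at -0.50, 0.29, -0.93 and -0.44.

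Body weight was 43.6 ± 3.79 g (SD, n = 10) in mice labelled *Npr1*+/- and 47.4 ± 4.69 g (n = 6) in wildtype mice, with a two-sided exact permutation p of 0.0950. The slope on body weight in the same fit was above 0 at 41 of the 48 genes (85.4%), against 47.3% of all genes, with a median of 0.03 log2 per g. That median was 0.011 with offsets for the deposited gene length, which is not the principal mRNA length, and 0.011 without *Npr1*+/- mouse 7. It was below 0 with another set of covariates, given in the closing section, that drew on fewer mice. None of the 48 was called (0% of all genes), and 2 had an unadjusted p under 0.05, against 17.1% of all genes. These were *Ndufaf2* (0.08 log2 per g, SE 0.0380, adjusted p = 0.275, edgeR) and *Ndufc2* (0.07 log2 per g, SE 0.0338, adjusted p = 0.285), followed by *Ndufb2* (0.08 log2 per g, SE 0.0386, adjusted p = 0.3005). The lightest mouse, *Npr1*+/- mouse 7 at 36.5 g, had the lowest complex I level, and the heaviest, wildtype mouse 3 at 54 g, was slightly below the mean at -0.08.

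A single library decided the count of calls for body weight. Without *Npr1*+/- mouse 3 (40.1 g, cage 675, complex I median deviation 0.04), 23 of the 48 genes were called, where 22.1% of 14284 genes were, and the slope was above 0 at 46, against 48.2% of genes. *Ndufaf2* then had 0.16 log2 per g (SE 0.0363, adjusted p = 0.00969, edgeR), *Ndufb2* 0.15 (SE 0.0395, adjusted p = 0.0191) and *Ndufc2* 0.13 (SE 0.0339, adjusted p = 0.0155). Among the 23 were *Ndufb8*, *Ndufv2*, *Ndufs4* and *Ndufa4*. Leaving out any other single mouse gave 0 calls.

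Differences between the 4 cages were called at 0 of the 48 genes, against 0.0279% of all genes, and 0 had an unadjusted p under 0.05, against 7.36%. The smallest p-values were those of *Ndufaf2* (p = 0.138, adjusted p = 0.670, edgeR), *Ndufc2* (p = 0.142) and *Ndufa1* (p = 0.162), a small proximal-arm subunit encoded on the X chromosome. Without *Npr1*+/- mouse 3, *Ndufa1* and *Ndufaf2* were called (adjusted p = 0.0307 and 0.0443), where 6.08% of genes were. The median complex I deviation of a mouse ran from -0.63 to 0.04 in cage 675, from -0.0051 to 0.21 in cage 676, from -0.42 to 0.34 in cage 677 and from -0.73 to 0.62 in cage 678, so that the 2 extremes of all 16 mice shared a cage.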

How the data were processed

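The authors deposited raw counts per gene with a gene length, made with STAR 2.7.2b on GRCm38 and featureCounts 1.6.4 on GENCODE M24 genes, counting fragments with both ends aligned. Whether strand was used in counting is not given in the sources used here, so reads of overlapping antisense genes may be shared. The labels name a Tecan kit, whereas the paper's methods name a TruSeq Stranded kit and another version of featureCounts. Symbols came from GENCODE M21 (55144 of 55471 identifiers matched), as did transcripts. The principal mRNA was the shortest APPRIS principal transcript of the best support. Counts (15273472 to 59682677 per library) were tested in R 4.3.3 with edgeR 4.0.16: filterByExpr, TMM, glmQLFit (robust = TRUE, legacy = TRUE), genotype label with cage and body weight, all 16 libraries, Benjamini-Hochberg over 14331 genes, threshold 0.05. Deviations used log2 CPM with a prior count of 2. Intervals of 95% came from the standard error on 10 residual degrees of freedom. Alternatives used DESeq2 1.42.0, limma 3.58.1 and other settings. The edgeR genotype fit was tested on simulated counts of independent genes without effects of cage or body weight. The other steps were not simulated.

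The 48 genes and all lists were chosen with earlier results of these data known. Genes were named by rule: the 5 higher and 5 lower by genotype, the 3 by body weight and by cage with the smallest p-values, the 5 highest and 5 lowest levels, the 3 highest and 3 lowest CVs, the core subunits, the paralogs, *Ndufb8* and the gene that failed the filter. Other genes were named after their values were seen. A gene that meets the rule is not reported here and is left out of the plots of single genes.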

Additional observations from a re-analysis of the deposited data

Results flagged for a closer look

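Among the 17 genes whose genotype values were examined (34 groups of mice), 5 groups held a mouse far from the rest of its group on log2 CPM, where chance gives about 1.7. *Npr1*+/- mouse 9 was the lowest of its group for *Ndufa10*, at 7.97 log2 CPM against 8.326 for the nearest mouse. Wildtype mouse 1 was the highest of its group for *Ndufb2* (8.025 against 7.631 log2 CPM), *Ndufc2* (8.354 against 7.852), *Ndufaf2* (4.789 against 4.233) and *Ndufb4* (6.014 against 5.51). These 4 genes covary across the mice, so the 4 are not separate observations. Without wildtype mouse 1, 33 of the 48 genes had a log2 fold change below 0, with a median of -0.04.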

How the results depend on the processing

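The count of 0 genes called by genotype was the same under every alternative and every left-out mouse. Over the fits that leave out 1 mouse, the genes below 0 numbered 20 to 47 and their median ran from -0.14 to 0.03, with 24 without *Npr1*+/- mouse 5, 20 without mouse 6, 43 without mouse 7, 26 without wildtype mouse 4, and 47 without *Npr1*+/- mouse 9 or wildtype mouse 5. Calls by body weight ran from 0 to 23 and by cage from 0 to 2, and all of them came without *Npr1*+/- mouse 3. Without *Npr1*+/- mice 5, 6 and 7, chosen after seeing the data, 10 genes were below 0 with a median of 0.13, *Npr1* was at -0.094, *Ndufs1* at 0.067, *Ndufs3* at 0.066 and *Ndufs8* at 0.10.

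Signs of named genes changed with the covariates and with the mice left out. With the genotype label alone, *Ndufb2* was at -0.0067, *Ndufc2* at -0.063, *Ndufaf2* at -0.093, *Ndufb4* at -0.023, *Ndufb8* at -0.060 and *Ndufv2* at -0.078. With cage only, all 48 genes were below 0 (median -0.19), with *Ndufb2* at -0.22, *Ndufc2* at -0.22, *Ndufaf6* at -0.089, *Ndufaf2* at -0.28, *Ndufb4* at -0.19, *Ndufb8* at -0.22 and *Ndufv2* at -0.18. *Ndufv2* was at -0.00035 with body weight only. *Ndufb8* was at -0.026 under scaling by library size only, and under limma-voom it was at -0.059 and *Ndufv2* at -0.0095. Offsets for the deposited gene length, not the principal mRNA length, left 33 genes below 0, and DESeq2 left 35. The causes were not tested. Leaving out single mice gave ranges of -0.067 to 0.23 for *Npr1*, -0.10 to 0.23 for *Ndufaf2*, -0.043 to 0.17 for *Ndufaf6*, -0.12 to 0.23 for *Ndufb2*, -0.14 to 0.21 for *Ndufb4*, -0.21 to 0.13 for *Ndufb8*, -0.083 to 0.20 for *Ndufc2*, -0.19 to 0.031 for *Ndufs1*, -0.15 to 0.024 for *Ndufs8* and -0.12 to 0.15 for *Ndufv2*.

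Replicate numbers did not pair the mice, since the deviations of the 6 same-numbered pairs correlated at 0.0328 to 0.170 (54 other pairs averaged -0.0082). A fit with the replicate block in place of cage left *Npr1*+/- mice 7, 8, 9 and 10 each alone in a block. The genotype difference and the slope on body weight then came only from the 6 same-numbered pairs, which held *Npr1*+/- mice 5 and 6. In that fit 47 genes were below 0 with a median of -0.30, 3 had an unadjusted p under 0.05 (9.03% of all genes did), and 0 were called. Slopes on body weight were then above 0 at 2 of 48 genes (median -0.020), and at 6 of 48 with length offsets as well. *Ndufb2* was then at -0.32, *Ndufc2* at -0.28, *Ndufaf6* at -0.17, *Ndufaf2* at -0.36, *Ndufb4* at -0.39, *Ndufb8* at -0.40 and *Ndufv2* at -0.33, and the slope of *Ndufc2* on body weight at -0.0026. With length offsets and the block together, *Ndufa4l2* was at 0.16, *Ndufb2* at -0.39, *Ndufc2* at -0.033, *Ndufaf2* at -0.30, *Ndufb4* at -0.27, *Ndufb8* at -0.35 and *Ndufv2* at -0.23, and the slope of *Ndufb2* at -0.0015.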

Other observations

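*Ndufb1-ps*, which the annotation names as a pseudogene and the choice of symbols left out, was at 99.0, 197 and 353 CPM in libraries labelled *Npr1*+/- (lowest, median and highest) and at 171, 207 and 269 CPM in wildtype, with a level of 236 ± 75.2 CPM per kb (SD, n = 16). That level lay within the range of the 10 distal-arm subunits, 47.9 to 1077 CPM per kb. Its log2 fold change was 0.03 (SE 0.265, p = 0.902, edgeR), and it too was lowest in *Npr1*+/- mouse 7 and highest in *Npr1*+/- mouse 9.

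Of the further assembly factors with other names, *Tmem126a* was the most abundant, at 140 ± 35.6 CPM per kb, and *Sfxn4* the least, at 1.83 ± 0.497 CPM per kb. Their CV ran from 9.43% in *Dmac2* to 27.1% in *Sfxn4*, with a median of 19.8%. The slope on body weight was above 0 at 8 of these 14 genes, against 47.3% of all genes.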
